A study of Arabidopsis thaliana with 6 samples.

Results

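The transcripts described here are those of 10 nuclear genes that encode chloroplast group II intron splicing factors, namely CRS1, CAF1, CAF2, RNC1, CFM2, WTF1, OTP51, OTP70, PPR4 and EMB2654. They were chosen by their identifiers for the known role of their proteins, not by their measured values, and are 10 of the 36917 genes with a count in the tables. Counts per gene were compared between 3 RNA-Seq libraries of amiR-mterf2 seedlings and 3 libraries of wild-type Col-0 seedlings. The knock-down line, amiR1-3-mterf2, expresses an artificial microRNA against MTERF2 in the Col-0 background, and all amiR-mterf2 libraries come from this single line. Whole seedlings of both genotypes were 6 days old and had grown in long days on medium with sucrose, so that green and root tissue were pooled and the level of a transcript is an average over all cells. In such samples fewer cells of a type and less RNA per cell cannot be told apart. The methods state 3 independent biological replicates per genotype, and the total RNA was depleted of rRNA.

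Group II introns are catalytic RNAs that interrupt many plastid genes and remove themselves by the same chemistry as the spliceosome. In land plant chloroplasts almost none of them splices unaided. They depend on proteins that are made from nuclear genes, imported into the chloroplast, and bound to one or to several introns. CRM proteins carry an RNA-binding domain related to a bacterial ribosome-associated protein, PPR proteins recognise RNA through tandem helical repeats, and a plastid-encoded maturase, matK, acts on group IIA introns. The protein targeted in this line, mTERF2, belongs to the mitochondrial transcription termination factor family of nucleic acid-binding proteins, and the study asked what part it has in the splicing of chloroplast introns.

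The introns that these factors serve are given at their 5′ ends because the factors are grouped by them in what follows. Each line gives 10 exon bases followed by 30 intron bases of the TAIR10.1 plastid genome, read 5′ to 3′ on the strand of the gene, and capitals mark the GTGNG pentamer (N is any base) nearest to the annotated exon end.
atpF intron (12624 to 12663, minus strand): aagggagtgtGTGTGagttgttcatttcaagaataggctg
rpoC1 intron (22623 to 22662, minus strand): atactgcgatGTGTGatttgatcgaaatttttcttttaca
ycf3 intron 1 (44436 to 44475, minus strand): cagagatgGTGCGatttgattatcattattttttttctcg
ycf3 intron 2 (43494 to 43533, minus strand): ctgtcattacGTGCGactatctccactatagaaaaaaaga
ndhA intron (121427 to 121466, minus strand): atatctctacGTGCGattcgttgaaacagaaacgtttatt
rps12 intron 1 (69581 to 69620, minus strand): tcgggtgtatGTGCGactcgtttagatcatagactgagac
petB intron (74837 to 74876, plus strand): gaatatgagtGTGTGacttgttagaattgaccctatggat
The pentamer read GTGCG in 4 of the 7 introns (both ycf3 introns, ndhA and rps12 intron 1) and GTGTG in the 3 others, and at ycf3 intron 1 it began 2 bases before the annotated intron. The introns of atpF (715 bp), rpoC1 (791 bp), ycf3 (714 and 787 bp), ndhA (1080 bp) and petB (804 bp) are continuous. Intron 1 of rps12 is instead transcribed in separate pieces and spliced in trans, and PPR4 and EMB2654 both act on it. The last 100 bases of its second piece (98794 to 98893, minus strand, one of the copies in the inverted repeat) hold the hairpin of domain V, the catalytic core of a group II intron, given in capitals as the 34 bases from GAGCCGT to ACGGTTC.
rps12 intron 1, end of the second piece: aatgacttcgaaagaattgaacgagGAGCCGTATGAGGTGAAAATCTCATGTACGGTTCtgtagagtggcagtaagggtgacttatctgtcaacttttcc

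The libraries held between 18004935 and 21832003 counts on genes, and levels are given as CPM, counts scaled to a common library size after TMM normalization. At this depth 3 counts, taken as the floor of detection, correspond to 0.140 to 0.175 CPM, a limit that covers counting error only. The targeted gene MTERF2 (AT2G21710) was measured at 1.87, 0.781 and 0.427 CPM in amiR-mterf2 and at 2.25, 1.80 and 2.71 CPM in Col-0. These levels came from 32, 16 and 8 counts in amiR-mterf2 and 48, 33 and 58 counts in Col-0. The first amiR-mterf2 library thus lay above one Col-0 library, and its log2 fold change, -1.15 with a standard error of 0.48, did not pass the threshold of 0.05 (adjusted p = 0.0837 by the quasi-likelihood test of edgeR, Benjamini-Hochberg adjusted over all genes tested). It was lower in every fit without 1 library, but passed in 2 of these 6 fits, without Col-0 replicate 2 (-1.29, adjusted p = 0.0265, edgeR) and without amiR-mterf2 replicate 1 (-1.88, adjusted p = 0.0150, edgeR). In the other 4 it lay further from the threshold, at -1.15 without Col-0 replicate 1 (adjusted p = 0.148, edgeR), -0.99 without Col-0 replicate 3 (adjusted p = 0.215, edgeR), -0.98 without amiR-mterf2 replicate 2 (adjusted p = 0.236, edgeR) and -0.78 without amiR-mterf2 replicate 3 (adjusted p = 0.235, edgeR). The paper reports reduced MTERF2 transcript in its knock-down lines by quantitative RT-PCR, and reduced MTERF2 mRNA in its own reading of the RNA-Seq data. Col-0 replicate 2 stood apart from the other libraries, with a mean chi-square per gene of 25.2 and 24.3 against its own replicates, where the replicates 1 and 3 differed by 3.03 and the amiR-mterf2 libraries by 3.35 to 3.58. Results for the factors are therefore also given without it.

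Of the 10 splicing factor transcripts, 5 were higher in amiR-mterf2 (CAF1, CAF2, CFM2, PPR4 and EMB2654), 1 was lower (OTP51), and 4 did not pass the threshold (CRS1, RNC1, WTF1 and OTP70). Every one of the 10 had counts in all 6 libraries and passed the filter on low counts. Over all 17902 genes tested, 18.1% were higher and 18.2% lower at the same adjusted p under 0.05 (edgeR), 36.4% in all. The median log2 fold change of the 10 genes was 0.42, with 8 of them above 0, against a median of -0.02 over all genes tested. All amiR-mterf2 libraries lay above all Col-0 libraries for 6 of the 10 (the 5 called and RNC1), where 25.0% of all genes tested did so, and below them for OTP51 alone, where 24.4% did so. Without Col-0 replicate 2 the calls stood for the same 5 and 1 genes, at a background of 22.1% higher and 20.8% lower genes. Scaling by total counts without TMM shifted the median of all genes to -0.17 and left 3 of the 5 higher calls, those of CAF1, PPR4 and EMB2654, and the lower call of OTP51. Without amiR-mterf2 replicate 1, and likewise without amiR-mterf2 replicate 3, the calls were 3 higher and 0 lower, and without Col-0 replicate 3 they were 6 higher and 0 lower.

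**Figure D1:**
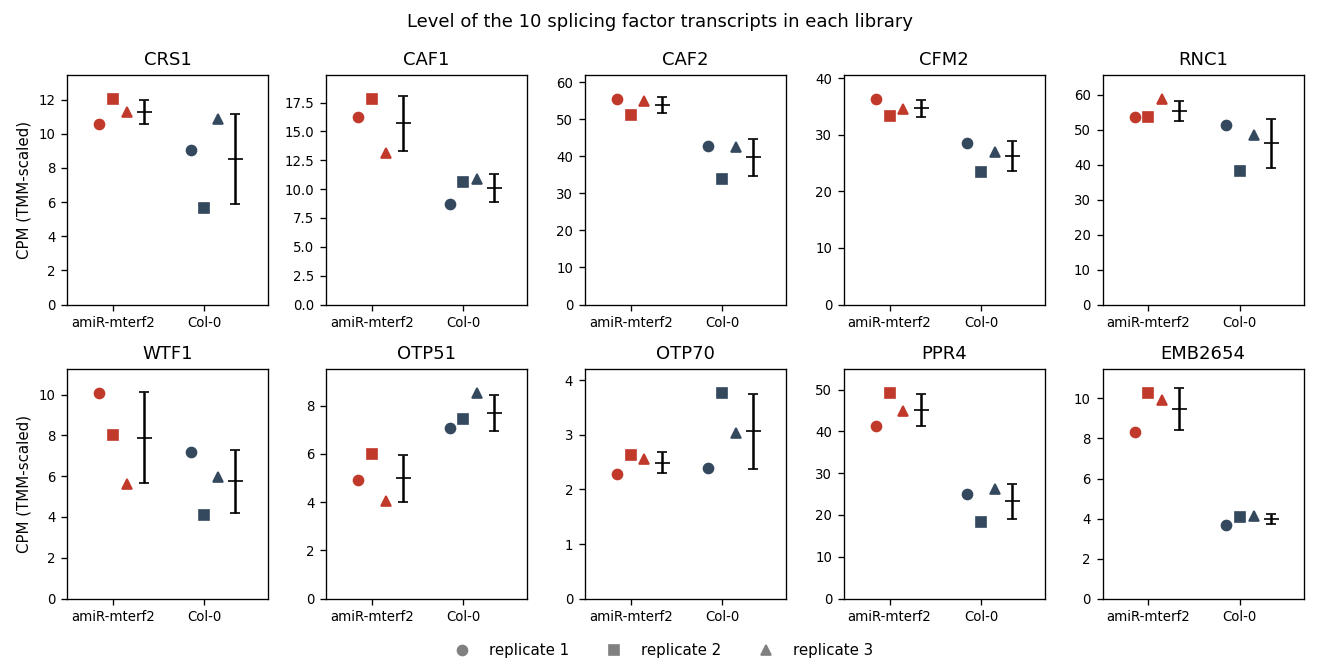
Level of each splicing factor transcript in CPM after TMM scaling, with amiR-mterf2 in red on the left and Col-0 in dark blue on the right of each panel. Marker shapes give the replicate number, and black bars the mean and SD (n = 3). The panels of PPR4 and EMB2654 show the widest gaps between the genotypes, with all amiR-mterf2 libraries above, and that of OTP51 shows the reverse order.

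**Figure D2:**
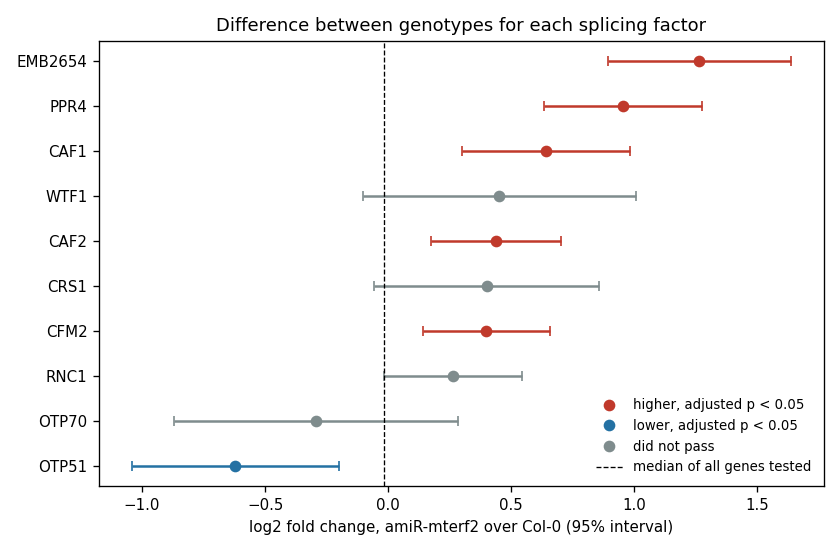
Log2 fold change of amiR-mterf2 over Col-0 for the 10 transcripts, with 95% intervals from the edgeR fit. The dashed line is the median of all genes tested (-0.02). The interval of 5 genes lies to the right of it in red and that of OTP51 to the left in blue, and the 4 grey intervals include it.

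The largest differences among the 10 were those of the PPR factors of rps12 intron 1. EMB2654 (AT2G41720, chromosome 2, 17403603 to 17407325, minus strand), a PPR protein required for embryo development, was measured at 8.30, 10.3 and 9.94 CPM in amiR-mterf2 and at 3.66, 4.09 and 4.12 CPM in Col-0. The counts were 142, 210 and 186 in amiR-mterf2 and 78, 75 and 88 in Col-0. The lowest amiR-mterf2 library was well above the highest Col-0 library. EMB2654 averaged 9.50 ± 1.05 CPM in amiR-mterf2 and 3.96 ± 0.255 CPM in Col-0 (SD, n = 3 each), a 2.40-fold difference with a 95% interval of 1.86 to 3.11 (log2 fold change 1.26, standard error 0.17, adjusted p = 1.81e-04, edgeR). PPR4 (AT5G04810, chromosome 5, 1389979 to 1393997, plus strand), which carries an RNA recognition motif besides its PPR tract, was measured at 41.4, 49.1 and 44.8 CPM in amiR-mterf2 and at 25.0, 18.4 and 26.3 CPM in Col-0. Behind them stood 708, 1005 and 838 counts in amiR-mterf2 and 532, 337 and 562 in Col-0. Its groups did not overlap either. The mean was 45.1 ± 3.85 CPM in amiR-mterf2 and 23.2 ± 4.24 CPM in Col-0 (SD, n = 3 each), which is 1.94-fold with an interval of 1.55 to 2.42 (log2 fold change 0.96, standard error 0.15, adjusted p = 4.45e-04, edgeR). Without Col-0 replicate 2 the log2 fold changes were 1.29 for EMB2654 and 0.82 for PPR4, both called. Over 13 alternative settings EMB2654 ranged from 1.11 to 1.36 and PPR4 from 0.79 to 1.06, and both were called in each. RH3, a DEAD-box RNA helicase of the chloroplast that acts on several introns including those of rps12, is not one of the 10 but rose by a like amount. It was measured at 75.4, 82.4 and 103 CPM in amiR-mterf2 and at 45.0, 40.3 and 45.2 CPM in Col-0 (log2 fold change 1.00, standard error 0.13, adjusted p = 1.66e-04, edgeR). Within a library EMB2654 had 20.1%, 20.9% and 22.2% of the counts of PPR4 in amiR-mterf2, against 14.7%, 22.3% and 15.7% in Col-0. The log2 ratio of the pair differed by 0.29 between the genotypes, with overlapping libraries (two-sided exact permutation test, p = 0.4, adjusted p = 0.6 over 4 ratios, where 0.1 is the smallest p that 3 against 3 libraries allow). The overlap came from Col-0 replicate 2 alone, and without it the difference was 0.47, a value with no test.

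The CRM proteins that serve ycf3 intron 1 and the ndhA intron were all higher, by smaller amounts. CAF1 and CAF2 each bind a CRS2 protein, which is related to peptidyl-tRNA hydrolases, and the resulting complexes have different but overlapping sets of introns, those with CAF2 including rps12 intron 1 and the petB intron. CAF1 (AT2G20020, chromosome 2, 8644369 to 8647291, plus strand) was measured at 16.2, 17.8 and 13.1 CPM in amiR-mterf2 and at 8.69, 10.6 and 10.9 CPM in Col-0. These levels came from 278, 364 and 245 counts in amiR-mterf2 and 185, 195 and 233 counts in Col-0. Its groups were separate, and the mean was 15.7 ± 2.39 CPM in amiR-mterf2 and 10.07 ± 1.21 CPM in Col-0 (SD, n = 3 each; log2 fold change 0.64, standard error 0.15, adjusted p = 0.00759, edgeR). CAF1 was called in all 13 alternatives, between 0.49 and 0.76. CAF2 (AT1G23400, chromosome 1, 8311984 to 8315876, minus strand) was measured at 55.4, 51.3 and 54.9 CPM in amiR-mterf2 and at 42.7, 33.9 and 42.5 CPM in Col-0. The counts were 947, 1050 and 1027 in amiR-mterf2 and 910, 622 and 908 in Col-0. Its 3 amiR-mterf2 libraries lay close together, and Col-0 replicate 2 was the lowest of all. The mean was 53.8 ± 2.23 CPM in amiR-mterf2 and 39.7 ± 5.02 CPM in Col-0 (SD, n = 3 each; log2 fold change 0.44, standard error 0.12, adjusted p = 0.0148, edgeR), and without Col-0 replicate 2 the log2 fold change was 0.34 (adjusted p = 0.00110, edgeR).

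CFM2 (AT3G01370, chromosome 3, 139011 to 143782, plus strand), a CRM protein with several plastid targets that include ycf3 intron 1 and the ndhA intron, was measured at 36.2, 33.3 and 34.6 CPM in amiR-mterf2 and at 28.5, 23.3 and 26.9 CPM in Col-0. Behind them stood 620, 681 and 647 counts in amiR-mterf2 and 608, 428 and 576 in Col-0. All amiR-mterf2 libraries were above all Col-0 libraries. CFM2 averaged 34.7 ± 1.50 CPM in amiR-mterf2 and 26.3 ± 2.67 CPM in Col-0 (SD, n = 3 each; log2 fold change 0.40, standard error 0.12, adjusted p = 0.0202, edgeR), and without Col-0 replicate 2 its log2 fold change was 0.32. The calls of CAF2 and CFM2 were lost when libraries were scaled by their totals alone (log2 fold changes 0.28 and 0.24, adjusted p = 0.181 and 0.232, edgeR). They were also lost without amiR-mterf2 replicate 1 (CAF2 0.43 with an adjusted p of 0.0636, CFM2 0.38 with 0.0813, edgeR) and without amiR-mterf2 replicate 3 (CAF2 0.43 with 0.0624, CFM2 0.41 with 0.0653, edgeR). CAF1 had 29.4%, 34.7% and 23.9% of the counts of CAF2 in amiR-mterf2, against 20.3%, 31.4% and 25.7% in Col-0. Their log2 ratio differed by 0.19 between the genotypes (two-sided exact permutation test, p = 0.5, adjusted p = 0.6), and by 0.34 without Col-0 replicate 2. Of the peptidyl-tRNA hydrolase genes of the CRS2 family, AT5G38290 was measured at 11.3, 9.86 and 10.9 CPM in amiR-mterf2 and at 8.36, 5.40 and 7.63 CPM in Col-0 (log2 fold change 0.58, adjusted p = 0.0245, edgeR). The other, AT5G16140, was measured at 7.42, 5.22 and 5.08 CPM in amiR-mterf2 and at 5.63, 4.14 and 7.34 CPM in Col-0. Its groups overlapped, and its log2 fold change was 0.04 with an interval from -0.49 to 0.58.

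CRS1 (AT5G16180, chromosome 5, 5279884 to 5283102, plus strand), the CRM protein of the atpF intron and the founding member of the family in maize, did not pass the threshold. It was measured at 10.6, 12.01 and 11.3 CPM in amiR-mterf2 and at 9.06, 5.67 and 10.9 CPM in Col-0. These levels came from 181, 246 and 211 counts in amiR-mterf2 and 193, 104 and 232 counts in Col-0. Col-0 replicate 2 had the lowest value, and Col-0 replicate 3 overlapped the amiR-mterf2 libraries. The log2 fold change was 0.40 (interval -0.06 to 0.86, adjusted p = 0.159, edgeR), close to that of CFM2 but with a wider error. It was 0.19 without Col-0 replicate 2, and without Col-0 replicate 3 it was 0.61 with an adjusted p = 0.0496 (edgeR), the only alternative in which CRS1 was called. The CRM family members CFM3A and CFM3B, which are not among the 10, had log2 fold changes of 0.15 (adjusted p = 0.584, edgeR) and -0.33 (adjusted p = 0.643, edgeR). Reads of both could be shared with genes that overlap them on the opposite strand.

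The factors of ycf3 intron 2 were lower or did not pass. OTP51 (AT2G15820, chromosome 2, 6888540 to 6891409, minus strand) is a PPR protein with a LAGLIDADG motif as in homing endonucleases, and was the one transcript of the 10 that fell. It was measured at 4.91, 6.01 and 4.06 CPM in amiR-mterf2 and at 7.09, 7.47 and 8.51 CPM in Col-0. All amiR-mterf2 libraries lay below all Col-0 libraries. OTP51 averaged 4.99 ± 0.975 CPM in amiR-mterf2 and 7.69 ± 0.738 CPM in Col-0 (SD, n = 3 each), a ratio of 0.650 with an interval of 0.486 to 0.870 (log2 fold change -0.62, standard error 0.19, adjusted p = 0.0257, edgeR). The counts behind these levels were 84, 123 and 76 in amiR-mterf2 and 151, 137 and 182 in Col-0. The call was lost in 3 of the alternatives, each with 1 library less: without Col-0 replicate 3 (-0.54, adjusted p = 0.10, edgeR), without amiR-mterf2 replicate 1 (-0.60, adjusted p = 0.0827, edgeR) and without amiR-mterf2 replicate 3 (-0.49, adjusted p = 0.106, edgeR).

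APO1, an RNA-binding protein with zinc-binding repeats that is needed for the same intron, was measured at 10.5, 9.13 and 9.88 CPM in amiR-mterf2 and at 20.0, 12.3 and 17.7 CPM in Col-0. It was lower in every amiR-mterf2 library (log2 fold change -0.76, standard error 0.18, adjusted p = 0.00609, edgeR). THA8, a small PPR protein that also acts on this intron, was measured at 1.05, 0.830 and 0.534 CPM in amiR-mterf2 and at 0.845, 1.14 and 1.17 CPM in Col-0. With 10 to 25 counts per library, some of which could come from the stretch it shares with AT3G27770 on the opposite strand, its groups overlapped, and its log2 fold change of -0.39 had an interval from -1.35 to 0.58 (adjusted p = 0.529, edgeR). BSM is the Arabidopsis mTERF4, whose maize counterpart promotes splicing of ycf3 intron 2. It did not pass either, but its log2 fold change lay above 0, at 0.23 (interval -0.09 to 0.55, adjusted p = 0.248, edgeR). OTP51 and CAF2, which serve different introns of the same gene, moved in opposite directions. OTP51 had 8.87%, 11.7% and 7.40% of the counts of CAF2 in amiR-mterf2, against 16.6%, 22.0% and 20.0% in Col-0. The log2 ratio was 1.08 lower in amiR-mterf2 (difference -1.08), and without Col-0 replicate 2 the difference was -0.99. In amiR-mterf2 all libraries were lower for OTP51 and higher for CAF2 than any in Col-0, so their ratio had to separate the genotypes. Its test (two-sided exact permutation test, p = 0.1, the smallest possible, adjusted p = 0.4 over 4 ratios) therefore adds nothing to the values of the single genes.

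**Figure D3:**
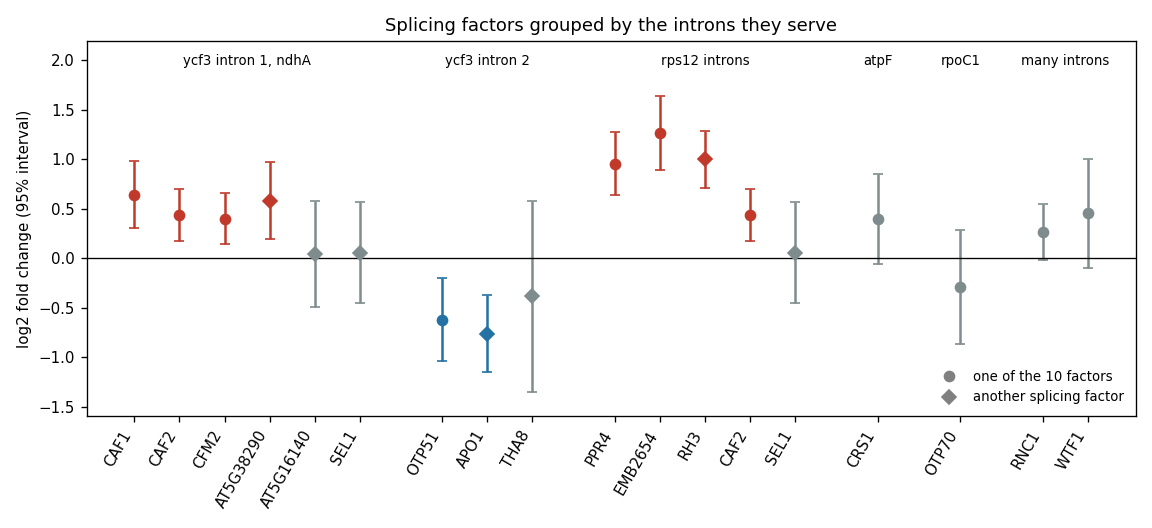
Log2 fold change of amiR-mterf2 over Col-0 with 95% intervals for the 10 factors (circles) and for other splicing factors of the same introns or of a partner family (diamonds), placed by the introns they serve, with CAF2 and SEL1 under both of theirs. Red marks calls higher and blue marks calls lower at an adjusted p under 0.05 (edgeR), grey marks neither. Under the rps12 introns PPR4, EMB2654 and RH3 lie between 0.96 and 1.26, above CAF2 at 0.44 and SEL1 at 0.05, and OTP51 and APO1 of ycf3 intron 2 lie at -0.62 and -0.76.

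OTP70 (AT4G25270, chromosome 4, 12936931 to 12938910, minus strand), the PPR protein of the rpoC1 intron, was the lowest of the 10 in counts, with 39, 54 and 48 in amiR-mterf2 and 51, 69 and 65 in Col-0. Its levels were 2.28, 2.64 and 2.56 CPM in amiR-mterf2 and 2.39, 3.76 and 3.04 CPM in Col-0, with overlapping groups. The log2 fold change was -0.29 (interval -0.87 to 0.29, adjusted p = 0.422, edgeR), and it was -0.12 without Col-0 replicate 2. This gene shares 306 bp of its span with AT4G25260 on the same strand, so that reads there are uncertain. SEL1, a PPR protein linked to the splicing of ndhA and of the other rps12 intron, likewise did not pass, at 3.92, 3.47 and 3.42 CPM in amiR-mterf2 and 3.90, 2.73 and 3.74 CPM in Col-0 (log2 fold change 0.05, adjusted p = 0.877, edgeR).

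RNC1 and WTF1 are known from maize as partners in complexes on many group II introns. RNC1 (AT4G37510, chromosome 4, 17626104 to 17629070, minus strand) is annotated as a ribonuclease III family protein, and its maize counterpart binds introns without cleaving them. It was measured at 53.5, 53.6 and 58.6 CPM in amiR-mterf2 and at 51.4, 38.2 and 48.6 CPM in Col-0. The counts were 916, 1098 and 1097 in amiR-mterf2 and 1094, 700 and 1038 in Col-0. All amiR-mterf2 libraries were above all Col-0 libraries, by a margin smaller than the spread within Col-0. The log2 fold change was 0.26 (interval -0.02 to 0.54, adjusted p = 0.135, edgeR), and 0.15 without Col-0 replicate 2. WTF1 (AT4G01037, chromosome 4, 451194 to 453243, minus strand), a protein of the plant organelle RNA recognition (PORR) family, was measured at 10.05, 8.01 and 5.61 CPM in amiR-mterf2 and at 7.18, 4.09 and 5.94 CPM in Col-0. Behind them stood 172, 164 and 105 counts in amiR-mterf2 and 153, 75 and 127 in Col-0. Within amiR-mterf2 its libraries were the most scattered of the 10 relative to their mean, and the groups overlapped. The log2 fold change was 0.45 (interval -0.10 to 1.01, adjusted p = 0.189, edgeR). It was 0.27 without Col-0 replicate 2 and 0.25 without amiR-mterf2 replicate 1. The WTF1 to RNC1 log2 ratio differed by 0.18 between the genotypes, less than the spread between libraries (two-sided exact permutation test, p = 0.6, adjusted p = 0.6), and by 0.09 without Col-0 replicate 2. Neither was called in any of the 13 alternatives.

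Levels per kilobase of exon, which allow transcripts of different length to be compared, were spread widely over the 10 genes. RNC1 was the most abundant in both genotypes, at 27.8 ± 1.46 CPM per kb in amiR-mterf2 and 23.2 ± 3.50 CPM per kb in Col-0 (SD, n = 3 each), followed by CAF2 at 17.7 ± 0.733 CPM per kb in amiR-mterf2 and 13.04 ± 1.65 CPM per kb in Col-0. In amiR-mterf2 PPR4 (13.9 CPM per kb), CFM2 (10.3) and CAF1 (6.54) came next, each apart from its neighbour. CRS1 (4.59), WTF1 (3.98) and EMB2654 (3.24) followed, where CRS1 overlapped with WTF1 and WTF1 with EMB2654. Below them and apart from EMB2654 were OTP51 (1.79) and OTP70 (1.26). In Col-0 CFM2 (7.81 CPM per kb) and PPR4 (7.16) had overlapping ranges. From CAF1 (4.19) through CRS1 (3.47) and WTF1 (2.90) to OTP51 (2.75), each overlapped with its neighbour in order. OTP51 was apart from OTP70 (1.55), which overlapped with EMB2654 (1.35) at the end. Thus EMB2654 was last of the 10 in Col-0 and stood above OTP51 and OTP70 in amiR-mterf2. Among nuclear genes tested, the Col-0 level per kilobase of exon was at the 91.3rd percentile for RNC1, the 83.4th for CAF2, the 69.3rd for PPR4 and the 21.6th for EMB2654.

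**Figure D4:**
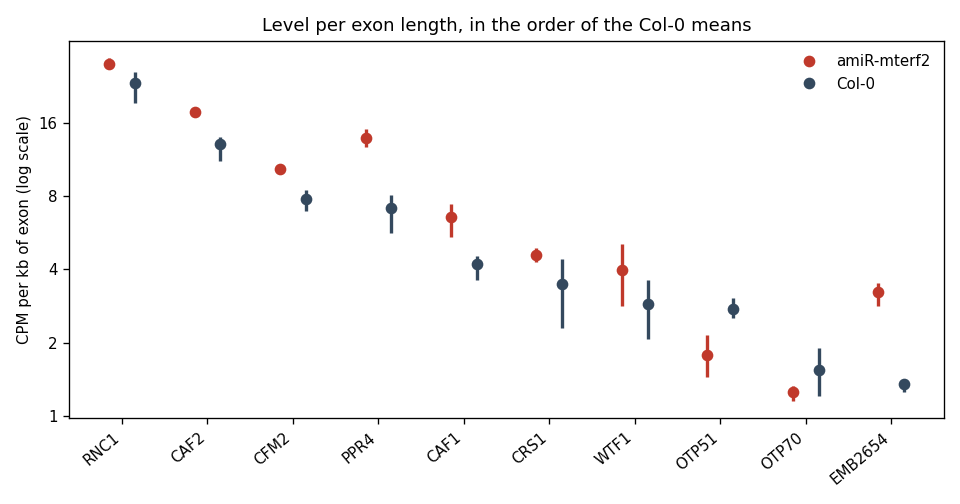
Mean level per kilobase of exon (points) and range over 3 libraries (bars) for the 10 transcripts on a log scale, amiR-mterf2 in red to the left of Col-0 in dark blue. Genes are in the order of their Col-0 means. EMB2654, the last in Col-0 at 1.35 CPM per kb, reached 3.24 in amiR-mterf2.

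By protein family, 3 of 4 CRM genes among the 10 were higher and none was lower, and of the 4 PPR genes 2 were higher and 1 lower, where over all genes tested 18.1% were higher and 18.2% lower. The remaining genes annotated as CRM family were 12, of which 11 were tested. Of these, 2 were higher, none was lower, and the median log2 fold change was 0.14. The remaining genes annotated as PPR proteins were 261, of which 190 were tested, 26 were higher (13.7%), 3 were lower (1.58%), and the median was 0.28. In a list of 14 other chloroplast splicing factors, all tested, 5 were higher (AT5G38290, RH3, EMB1270, EMB2279 and ISE2), 1 was lower (APO1) and 8 did not pass, with a median of 0.18. Of the PPR genes in that list, EMB2279 was measured at 9.94, 9.67 and 7.96 CPM in amiR-mterf2 and at 4.88, 4.03 and 4.96 CPM in Col-0 (log2 fold change 0.99, adjusted p = 0.00112, edgeR). EMB1270 was measured at 9.24, 8.20 and 8.33 CPM in amiR-mterf2 and at 5.92, 6.16 and 6.50 CPM in Col-0 (log2 fold change 0.47, adjusted p = 0.0305, edgeR), with reads at its overlap with AT3G18100 uncertain. AT3G42630 (PBF2), a PPR protein that the paper describes as specifically required for ycf3 intron 1, did not pass. Its log2 fold change was 0.21 (adjusted p = 0.297, edgeR). ISE2, a chloroplast RNA helicase that is one of the 14 and is given by name only because its call was seen, had a log2 fold change of 0.63 (adjusted p = 0.00365, edgeR).

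The plastid genes that hold introns were higher in amiR-mterf2 almost without exception, also where the transcript of the intron's factor was lower. Of 24 listed, with copies in the inverted repeat counted separately, 22 were tested. Of these, 21 were higher and none was lower (edgeR, also none at an unadjusted p under 0.05), and trnI.3 did not pass. Their median log2 fold change was 1.60. The paper cautions that tRNAs are not mapped representatively by this method, and tRNA genes are among those listed. How reads of the repeat copies were assigned is not known. In amiR-mterf2 the copies rpl2.1 and rpl2.2 averaged 32.2 and 493 CPM, and rps12B had only 12 to 64 counts per library. The copies are therefore not separate evidence. Over all genes tested, 18.1% were higher and 18.2% lower. These shares are mostly those of nuclear genes, which were 17724 of the 17902 genes tested. The paper reports a rise of more plastid genes in this line than are listed here, so the rise was not confined to genes with introns. The share of higher genes among plastid genes without introns was not computed. The maturase gene matK, which has no intron and lies within that of trnK, was higher as well, with a log2 fold change of 2.23. Among group IIA intron genes 9 of 10 tested were higher and among group IIB intron genes 11 of 11. Side by side as log2 fold changes, without RNC1 and WTF1, atpF was at 0.75 where CRS1 was at 0.40, and rpoC1 at 1.64 where OTP70 was at -0.29. For ycf3, at 1.32, CAF1 was at 0.64, CAF2 at 0.44, CFM2 at 0.40 and OTP51 at -0.62. The same CRM factors stood beside ndhA, at 1.11. The first segment of rps12 was at 1.81 where PPR4 was at 0.96, EMB2654 at 1.26 and CAF2 at 0.44. By contrast petB, at 0.37, was below its factor CAF2. Counts over exons do not separate spliced from unspliced transcripts, so that splicing itself was not measured by these values.

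Markers of cell types also differed between the libraries. The summed level of 6 markers of dividing cells was 6.55 to 9.56 CPM in amiR-mterf2 and 14.0 to 20.2 CPM in Col-0 (3 of 6 lower, edgeR, where 18.2% of all genes tested were lower). Summed, 5 root markers had 7.27 to 7.95 CPM in amiR-mterf2 and 16.2 to 37.4 CPM in Col-0 (2 of 4 tested lower). Most of the root sum was CASP1, at 6.37, 6.79 and 5.18 CPM in amiR-mterf2 and 14.9, 20.3 and 18.4 CPM in Col-0. PIN2 and WER did not pass. PIN2 had 1.11, 0.391 and 1.66 CPM in amiR-mterf2 and 0.282, 3.05 and 0.421 CPM in Col-0. The root hair genes COBL9 and EXPA7 had 0 to 2 counts in amiR-mterf2, and 176 and 69 counts in Col-0 replicate 2 where the other Col-0 libraries had 0 to 12. The sum of 4 seed storage and oil body markers was 15.7 to 17.8 CPM in amiR-mterf2 and 6.82 to 8.28 CPM in Col-0 (2 of 3 tested higher, where 18.1% of all genes tested were higher). Most of this difference was CRU3, with a mean of 9.13 CPM in amiR-mterf2 and 0.848 CPM in Col-0. OLEO1 was also higher, at low levels, and CRA1 did not pass (log2 fold change -0.08, adjusted p = 0.817, edgeR). The sum of 5 green tissue markers was 15818 to 16192 CPM in amiR-mterf2 and 10709.9 to 17444 CPM in Col-0, highest in Col-0 replicate 2, with 1 of 5 higher and 1 lower. The part of these shifts in the levels of the 10 factors was not tested.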

How the data were processed

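Per the labels and methods, total RNA of 6-day-old seedlings was rRNA-depleted and sequenced as read pairs. The authors deposited 1 table per library with raw counts of the reads on each gene's exons, without normalization. The file headers name HISAT2, while the submitters' processing notes list Trimmomatic, FastQC, TopHat2 2.1.1, featureCounts and TAIR10. Settings for strand and for reads with several matches are not given in the sources used here, so reads of overlapping genes cannot be assigned with certainty.

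Genotype and replicate number came from the labels. Counts were analysed in R 4.3.3 with edgeR 4.0.16 and limma 3.58.1. Genes were kept by filterByExpr (minimum count 10, minimum total 15), which left 17902 of 36917. After TMM scaling, the quasi-likelihood test of edgeR was applied to the genotypes, its p-values were adjusted after Benjamini and Hochberg over the 17902 genes, and 0.05 was the threshold. Standard errors were taken from the log2 fold change and the F statistic (change over the root of F), and intervals are 95%. CPM were derived from the deposited counts and the scaled library sizes. Ratios of a pair of factors were compared by exact permutation tests. Python 3.11.15, pandas 2.3.3, numpy 2.4.6, scipy 1.17.1 and matplotlib 3.10.9 served for the rest. Names, exon lengths and coordinates came from RefSeq's TAIR10.1 annotation, and sequences from its genome. On simulated counts with 200 genes changed 4-fold, edgeR recovered 96.5% of them and 5.85% of its calls were false. DESeq2 recovered 96%, with 9.86% of its calls false. The 10 factors differed by less than 4-fold, so recovery at their size was not measured. In the simulation 200 of 17616 genes tested were changed and no library was made to stand apart, where 36.4% of the real genes were called. The share of false calls therefore need not hold for these data.

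All 10 factors are named, MTERF2 is given as a check of the labels, and other splicing factors are named where they share an intron or a protein family with one of the 10. The factors and lists were chosen with earlier results of these data known. Alternatives were DESeq2's size factors, total counts without TMM, scaling on nuclear genes, the DESeq2 1.42.0 Wald test, no filter on low counts, a filter of 10 or more counts per library, a block for the replicate number, and fits without 1 library.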

Additional observations from a re-analysis of the deposited data

How the results depend on the processing

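Each of 8 counts of calls and the log2 fold changes of the 10 factors were recomputed under 13 alternatives. None of the 130 values of the factors changed direction, 120 kept their side of the threshold, 9 lost the call and 1 gained it. With total counts in place of TMM, 2131 genes were higher over all genes (against 3248) and 4136 lower (against 3261), 3 of the 10 factors and 3 of the 14 other splicing factors were higher (against 5 each), and the median of all genes was -0.17. Leaving out 1 library gave 3 to 6 factors higher and 0 to 1 lower, and 3 to 5 other splicing factors higher. The low counts were without amiR-mterf2 replicate 1 (3 factors higher, 0 lower, 3 other splicing factors higher) and without amiR-mterf2 replicate 3 (3, 0 and 3), and without Col-0 replicate 3 there were 6 higher and 0 lower. Without Col-0 replicate 1, Col-0 replicate 2 or amiR-mterf2 replicate 2 the factor calls stayed at 5 higher and 1 lower. Every fit without 1 library leaves 1 genotype with 2 libraries, and the cause of the changes was not tested. With the replicate block, 5 factors were higher and 1 lower, 4 other splicing factors were higher, and 3146 genes were higher and 3126 lower over all genes. Same-numbered libraries deviated together with correlations of 0.04, 0.03 and -0.02, so the numbers were not taken as pairs. Depth limits OTP70 among the 10 factors and MTERF2, THA8, CFM3B and SEL1 beside them, with counts under 100 in every library, and intervals and floors cover counting error and the spread of 3 libraries per genotype only.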
